A study of Mus musculus with 12 samples.

Results

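The serpins are a family of proteins with one common fold, most of which inhibit serine proteases. The family is described here in the caput, the head of the epididymis, of 13-month-old wild-type (WT) mice and of mice labelled Gpx5-/- (KO). Members were all gene names made of "Serpin", a clade letter from a to i and a number, and each gene was represented by its transcript with the highest mean level. The rule found 63 genes, with 77 transcripts, among the 22021 genes and 28344 transcripts of the caput transcriptome table. By clade they were 25 Serpina, 27 Serpinb, 3 Serpine, 2 Serpinf and 2 Serpini genes, with 1 gene each in clades c, d, g and h.

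The study set WT against Gpx5 knockout mice of the C57BL/6 strain, Gpx5 being the gene of a glutathione peroxidase that the epididymis secretes. The transcriptome was sequenced in 1 WT and 1 KO caput library at 13 months, and small RNAs in 10 libraries, 1 per genotype for each of 5 tissue and age pairs: testis, corpus and cauda at 13 months and caput at 13 and at 2 months. Tissue of 7 WT and 7 Gpx5-/- mice at 13 months was pooled in place of replicates, and caput and cauda were punctured in buffer to let spermatozoa out before RNA was taken. Each group was therefore 1 library, no difference between genotypes had a replicate check or a test, and every interval below covers counting error only.

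An inhibitory serpin exposes a flexible reactive centre loop as bait. The protease cuts the loop, stays bound to it, and both proteins are locked in an inactive complex that clearance receptors take up. Some members have lost the inhibitory function and act as chaperones, hormone carriers or signalling proteins. Clade a holds mostly secreted proteins of the alpha-1-antitrypsin and antichymotrypsin type, which expanded into many near-identical genes in the mouse, and clade b holds cytosolic inhibitors that protect cells from their own proteases. In the male tract, serpins and their target proteases are known for controlling how sperm surface proteins and seminal proteins are cut.

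The WT and KO transcriptome libraries rested on 14348655 and 13929327 mapped reads. Gpx5 was at 8474 RPKM (reads scaled to transcript length and to the mapped reads of the library) in WT and at 918 RPKM in KO. Caput markers were present in both libraries, with 30 of 30 genes on the list for the initial segment and caput secretion at 1 RPKM or more and a summed level of 27793 RPKM in WT and 45140 RPKM in KO. That list and its sums include Gpx5 itself. The libraries also differed in markers of the testis. All 22 spermatid and sperm markers were lower in KO by 2-fold or more, with a summed level of 12972 RPKM in WT and 202 RPKM in KO. Of 8 Leydig cell markers 7 were lower, with 371 RPKM in WT and 11.9 RPKM in KO, led by Insl3 at 219 and 1.47 RPKM. In pooled tissue, fewer cells of a type and less RNA per cell cannot be told apart. Whether the WT caput pool held RNA from testis tissue was not tested.

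Of the 63 serpin genes, 18 reached 1 RPKM in at least 1 library, the limit used for comparing genes. On the scale of log2(RPKM + 1), KO minus WT, 2 of the 18 were at least 1 unit (2-fold) higher in the KO library, 6 were at least 1 unit lower and 10 were within these limits. Over all 15000 genes that reached the limit, 2.77% were higher and 22.1% were lower by the same rule. By the GFOLD value of the authors' deposited table, a fold change shrunk for low counts, 2 members were past 1 on the higher side and 4 on the lower side, beside 1.69% and 20.2% of all 15000 genes. The median log2 difference of the 18 serpin genes was -0.06, beside 0.05 over all genes that reached the limit. The summed level of the family was 449 RPKM in WT and 709 RPKM in KO, and 1 gene accounted for this gap: without Serpina1f the sums were 252 and 241 RPKM.

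**Figure D1:**
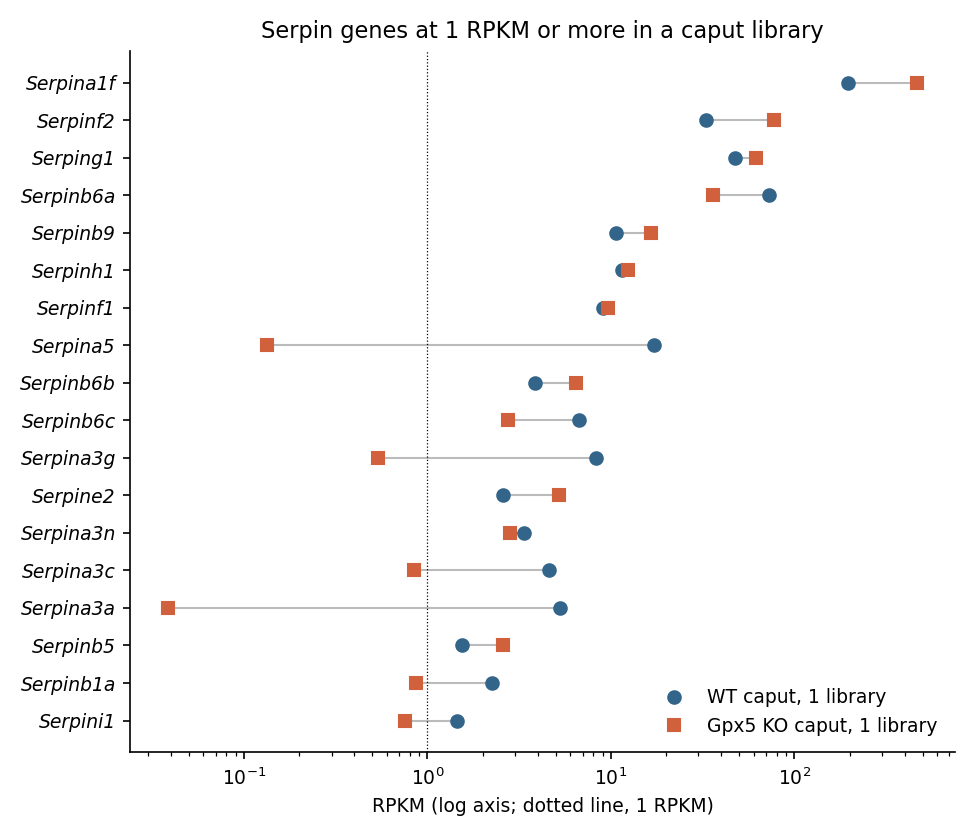
Level in RPKM on a log axis of the 18 serpin genes at 1 RPKM or more in a caput library, with circles for the WT library and squares for the KO library. Serpina1f was the highest in both, at 197 and 467 RPKM, and Serpina5 and Serpina3a lay far to the left in the KO library, at 0.133 and 0.0385 RPKM.

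Serpina1f, a relative of alpha-1-antitrypsin known for its expression in the epididymis, was the most abundant serpin. It stood at 197 RPKM in WT and at 467 RPKM in KO, which is 43.9% and 65.9% of the summed RPKM of the family. It ranked 227th of all genes by RPKM in WT and 115th in KO. The log2(RPKM + 1) difference was 1.24, and the reads per mapped read were 2.37-fold higher in the KO library (95% interval 2.31 to 2.44), from about 7346 reads in WT and 16915 in KO. These read numbers were recovered from rounded values that allow 6728 to 8089 reads in WT. Its 2 transcripts gave the same picture, with log2 differences of 1.24 and 1.25. Markers of caput secretory cells mostly lay on the same side, with 23 of 30 at least 2-fold higher in the KO library and a median log2 difference of 1.17. Of the 30, 2 were lower, Gpx5 itself and Sult1e1. The part of these markers in the result was not tested. Relative to the median of the list, the difference of Serpina1f was 0.07.

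The other member above the 2-fold limit was Serpinf2, which encodes alpha-2-antiplasmin, the main circulating inhibitor of plasmin. Serpinf2 had 33.0 RPKM in WT and 77.1 RPKM in KO, a log2 difference of 1.20. Its reads, 1033 in WT and 2345 in KO, were 2.34-fold higher per mapped read (2.17 to 2.52). Serpinf1, which encodes the non-inhibitory protein PEDF and is the next gene on chromosome 11 in the RefSeq annotation, had 9.10 RPKM in WT and 9.61 RPKM in KO. The read ratio of Serpinf1 was 1.06 (0.861 to 1.30), so these neighbours, with no protein-coding gene between them, lay at different distances from equality, with intervals that did not overlap.

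Plasmin is made from plasminogen by urokinase and tissue-type activators, and none of 5 genes of the plasminogen activation list that reached 1 RPKM passed the 2-fold limit (median log2 difference 0.17). Plat, the tissue-type activator, had 4.18 RPKM in WT and 4.37 in KO. Anxa2 and S100a10, which together bind plasminogen at the cell surface, had log2 differences of 0.70 and 0.93. Among the serpins that inhibit these activators, Serpine2 (protease nexin-1) had 2.58 RPKM in WT and 5.24 in KO, a log2 difference of 0.80. The read ratio of Serpine2 was 2.03 (1.53 to 2.72) from 76 and 150 reads, so the gene passed a 2-fold limit on the ratio and not on log2(RPKM + 1). Serpini1 (neuroserpin) had 1.45 RPKM in WT and 0.756 in KO, a log2 difference of -0.48.

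Serping1 encodes C1 inhibitor, which blocks the proteases of the complement C1 complex and plasma kallikrein. It had 47.4 RPKM in WT and 61.6 RPKM in KO, a log2 difference of 0.37 and a read ratio of 1.30 (1.20 to 1.40). Of 15 complement C1 and lectin pathway genes, 1 was higher by the 2-fold rule, Fcna at 9.15 and 20.1 RPKM, and none was lower (median log2 difference 0.23). Members lay on both sides: C1qa, a subunit of C1q, had 23.1 and 27.2 RPKM in WT and KO, and C3, the central component, 27.8 and 18.7 RPKM. Serping1 thus lay within the range of its complement partners. Of 10 macrophage and leukocyte markers none passed the limit in either direction.

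Serpinh1 encodes HSP47, a collagen chaperone of the endoplasmic reticulum with no inhibitory role. It had 11.5 RPKM in WT and 12.4 RPKM in KO, and its read ratio of 1.08 had an interval that held 1 (0.928 to 1.25). Of 23 collagen genes and endoplasmic reticulum partners, 1 was higher by the 2-fold rule, the cyclophilin gene Ppib at 115 and 242 RPKM, and none was lower. P4hb, a subunit of the collagen prolyl hydroxylase, had 247 and 452 RPKM.

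The largest differences of the family were on chromosome 12, where most Serpina genes lie in a row. Serpina5 encodes protein C inhibitor, whose loss is known to make male mice infertile. Serpina5 had 17.1 RPKM in WT and 0.133 RPKM in KO, a log2 difference of -4.00. Its values came from 530 WT reads and 4 KO reads, and the KO library was 129-fold lower per mapped read (49.9 to 474). Serpina3a, its neighbour, had 5.27 RPKM in WT and 0.0385 RPKM in KO from 141 reads and 1 read, a log2 difference of -2.59. Because the KO library held 1 read, the WT over KO ratio of 137 had a wide interval (24.2 to 5444). Along the row, the level was thus high in the WT library at Serpina5 and near 0 in the KO library at both genes.

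Serpina3g, which encodes an inhibitor of cysteine cathepsins, had 8.28 RPKM in WT and 0.537 in KO, with 238 and 15 reads (15.4-fold lower in the KO library, 9.15 to 28.0). Serpina3c, a member of the antichymotrypsin group, had 4.62 and 0.850 RPKM, with 112 and 20 reads (5.44-fold lower, 3.36 to 9.24). Serpina3n, another member, which inhibits leukocyte proteases, had 3.34 and 2.82 RPKM. The ratio of Serpina3n held 1 (KO over WT 0.845, 0.623 to 1.14), and its interval did not overlap those of Serpina3c and Serpina3g. Together the 11 Serpina3 genes had 665 reads in WT and 170 in KO. These genes have near-identical copies, and how the counting treated reads that match several of them is not given in the sources used here. The split between them is therefore uncertain, and their sum may hold a read more than once.

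**Figure D2:**
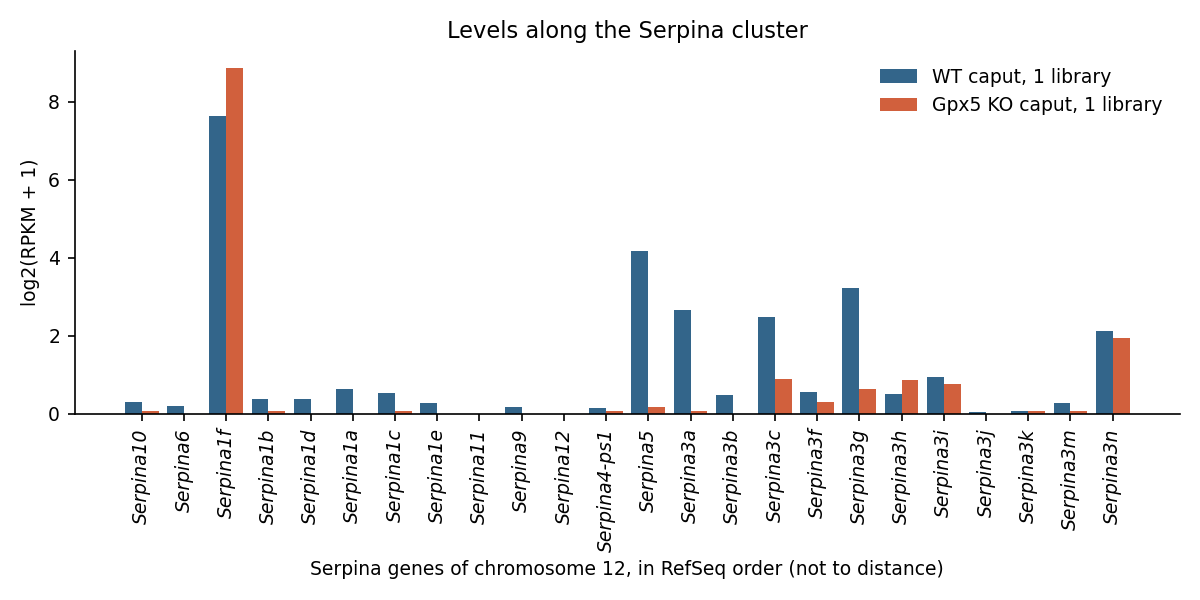
Level as log2(RPKM + 1) of the Serpina genes of chromosome 12 in RefSeq gene order, not to distance, with blue bars for the WT library and orange bars for the KO library. Serpina1f stood alone at the left with the higher bar in KO, and Serpina5, Serpina3a, Serpina3c and Serpina3g had the higher bar in WT.

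Serpina1f lies next to the genes of alpha-1-antitrypsin itself, Serpina1a to Serpina1e. Those 5 genes stayed under 1 RPKM, with at most 0.536 RPKM, and together had 37 reads in WT and 2 in KO (18.0-fold lower in the KO library, 4.63 to 154). They lay on the other side from Serpina1f, with no protein-coding gene between Serpina1f and Serpina1b. The 5 copies are nearly identical, so only their sum is given. If a read was counted under several copies, the sum holds it more than once and the interval is too narrow.

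The 4 members that were lowest in the KO library relative to WT, Serpina5, Serpina3a, Serpina3g and Serpina3c, lay on the side of the Leydig and spermatid markers given above, whose medians were -3.44 and -5.25 on the log2 scale. The part of those markers in the result was not tested. Tissue kallikreins, serine proteases that protein C inhibitor is known to bind, lay on the same side. All 9 kallikrein genes at 1 RPKM or more were lower by the 2-fold rule, with a median log2 difference of -1.66. Each of them reached 1 RPKM in the WT library only. Genes that pass the limit through WT alone can only be lower in KO, so this count and median do not measure a direction. Over all 27 listed kallikrein genes, without that limit, the summed level was 51.0 RPKM in WT and 3.54 in KO. Klk1b8 had 24.5 RPKM in WT and 0.847 in KO, and Klk1b26 had 5.03 and 0.905. The Klk1b genes are also near-identical copies of each other.

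Acrosin, a protease of the sperm acrosome, is a further known target of protein C inhibitor. Of 20 serine protease and related genes listed for germ cells 18 were lower by the 2-fold rule, with a median log2 difference of -3.56. Acr, the acrosin gene, had 22.7 RPKM in WT and 0.240 in KO, Prss37 had 96.7 and 0.684, and Prss39 had 69.6 and 0.519. The other 2 were Prss41 and Ovch2. Prss41 had 1.44 RPKM in WT and 0.258 in KO and was just inside the limit with a log2 difference of -0.96. Ovch2, an ovochymase gene, had 295 RPKM in WT and 675 in KO, a log2 difference of 1.19. It lay opposite to the rest of the list and near the median of 1.17 of the caput secretory markers. Whether Ovch2 reads came from germ cells was not tested. Of 12 coagulation and protein C pathway genes none passed the limit, and the cofactor gene Pros1 had 7.27 and 7.51 RPKM. Their log2 differences ran from -0.95 to 0.79, with a median of 0.04. On the KO over WT ratio of reads, F5 was past 2-fold on the lower side, at 0.187 (0.121 to 0.281) from 154 and 28 reads. Kng2 was past it on the higher side, at 2.15 (1.01 to 4.89) from 11 and 23 reads.

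Promoters are shown for the 2 members that were higher and for 2 neighbours that were lower, because these pairs lay on opposite sides. Each runs from 250 bases before to 50 bases after the RefSeq start, 5′ to 3′ on the strand of the gene, in build GRCm38.p6. Capitals mark matches on either strand to 4 motifs that were searched: TGTTCT (reverse AGAACA), a core of androgen receptor sites, TGACGT (reverse ACGTCA), a core of cAMP response elements, TATAAA (reverse TTTATA), the TATA box, and GGGCGG (reverse CCGCCC), the GC box.
Serpina1f, chr12:103695480-103695779, minus strand: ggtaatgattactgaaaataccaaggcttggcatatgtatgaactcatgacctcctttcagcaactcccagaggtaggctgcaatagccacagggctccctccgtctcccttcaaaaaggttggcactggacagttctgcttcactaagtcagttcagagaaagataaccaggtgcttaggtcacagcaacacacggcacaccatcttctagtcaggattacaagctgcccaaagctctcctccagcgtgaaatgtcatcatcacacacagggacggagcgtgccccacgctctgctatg
Serpinf2, chr11:75439452-75439751, minus strand: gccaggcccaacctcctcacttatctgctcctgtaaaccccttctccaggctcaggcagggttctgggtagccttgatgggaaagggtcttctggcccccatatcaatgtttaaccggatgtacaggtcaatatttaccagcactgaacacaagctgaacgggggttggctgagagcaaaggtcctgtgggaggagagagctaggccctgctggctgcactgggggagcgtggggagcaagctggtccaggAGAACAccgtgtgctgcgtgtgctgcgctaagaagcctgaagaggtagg
Serpina5, chr12:104100863-104101162, plus strand: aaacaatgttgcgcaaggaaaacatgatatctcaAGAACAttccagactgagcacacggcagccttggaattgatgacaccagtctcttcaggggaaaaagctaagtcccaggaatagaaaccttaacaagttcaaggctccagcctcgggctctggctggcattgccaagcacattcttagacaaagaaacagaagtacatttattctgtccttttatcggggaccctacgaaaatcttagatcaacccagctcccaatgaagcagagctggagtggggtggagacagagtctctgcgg
Serpina3a, chr12:104112474-104112773, plus strand: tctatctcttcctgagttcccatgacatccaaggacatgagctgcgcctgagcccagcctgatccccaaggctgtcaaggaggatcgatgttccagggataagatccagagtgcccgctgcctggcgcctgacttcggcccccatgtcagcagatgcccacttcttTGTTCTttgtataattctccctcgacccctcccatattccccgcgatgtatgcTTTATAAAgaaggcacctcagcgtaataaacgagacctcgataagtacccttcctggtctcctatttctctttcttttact

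Serpina1f held none of the 4 motifs in this window. Serpinf2 had AGAACA at position 1, counting from 0 at the start, Serpina5 had AGAACA at position -216, and Serpina3a had TGTTCT at position -84 and overlapping TATA matches at positions -31 and -29. Of 16 members at 1 RPKM or more with a promoter in the table, 5 held the androgen receptor motif, 0 the cAMP motif, 3 the TATA box and 7 the GC box. Among all 32851 promoters the shares were 18.97%, 7.51%, 13.6% and 35.7%. The androgen receptor motif was thus present in a promoter of both directions and absent from the promoter of the most abundant member. A match is a description of letters and no evidence of binding.

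The cytosolic clade b was led by Serpinb6a, known as an inhibitor of cathepsin G. It had 73.1 RPKM in WT and 35.8 RPKM in KO, with 1513 and 720 reads (2.04-fold lower in the KO library, 1.87 to 2.23). The log2 difference of -1.01 sat on the limit, and its 4 transcripts ran from -0.999 to -1.01 with 2 of them just inside it. Serpinb6c, the next gene on chromosome 13, had 6.72 and 2.76 RPKM, a log2 difference of -1.04 that also lay just past the limit. Serpinb6b had 3.86 RPKM in WT and 6.49 in KO, a log2 difference of 0.62 and a read ratio of 1.68 (1.31 to 2.17), opposite to both. The Serpinb6 genes are similar copies, with the same limit on splitting their reads.

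Serpinb9, the inhibitor of granzyme B, had 10.6 RPKM in WT and 16.6 RPKM in KO, with 515 and 778 reads and a ratio of 1.56 (1.39 to 1.74). Serpinb1a, an inhibitor of neutrophil elastase and related proteases, had 2.25 and 0.861 RPKM, with 62 and 23 reads and a log2 difference of -0.81 (2.62-fold lower in the KO library per mapped read, 1.60 to 4.43). Serpinb5, which encodes the non-inhibitory protein maspin, had 1.55 and 2.57 RPKM and a read ratio of 1.66 (1.18 to 2.36). Maspin is known from basal epithelial cells, and 1 of 7 basal cell markers, Krt15, was higher by the 2-fold rule, at a median log2 difference of 0.86 for the list and summed levels of 49.5 and 93.0 RPKM. Their part in the result was not tested.

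The target proteases of clade b were mostly near 0 in both libraries. Of 24 leukocyte and mast cell serine proteases 3 reached 1 RPKM. Gzmb, the granzyme that Serpinb9 blocks, had 0.886 RPKM in WT and 1.12 in KO. Gzmn, a granzyme gene, had 11.0 RPKM in WT and was listed at 0 in KO, and Tpsg1, a tryptase gene, had 2.06 and 0.177 RPKM. None of 8 neutrophil markers reached 1 RPKM. All 12 genes of the cathepsin list, which also holds the legumain gene Lgmn and the serine carboxypeptidase gene Ctsa, reached 1 RPKM in a library, none passed the 2-fold rule, and their summed level was 377 RPKM in WT and 596 in KO, with Ctsl, the most abundant, at 228 and 364 RPKM.

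**Figure D3:**
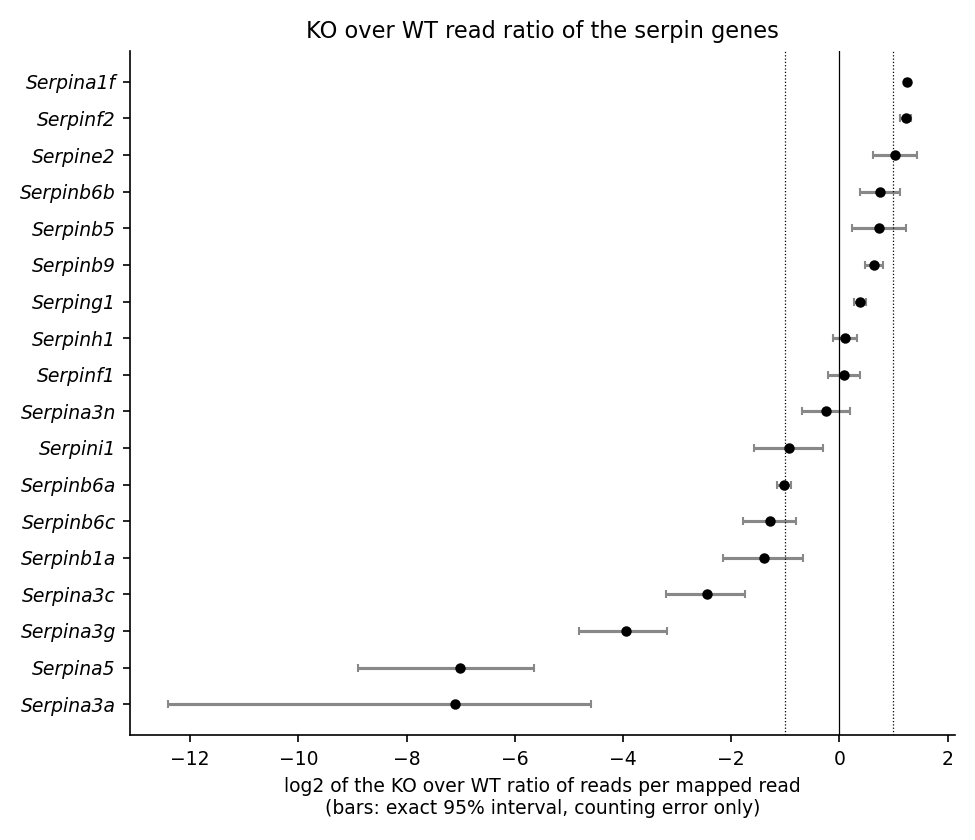
KO over WT ratio of reads per mapped read on a log2 axis for the 18 serpin genes, with exact 95% intervals for counting error and dotted lines at 2-fold. The interval lay above equality for 7 genes, below it for 8 and held it for 3, Serpinh1, Serpinf1 and Serpina3n.

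Membrane-anchored proteases and their inhibitors, which work beside secreted serpins on epithelia, had a median log2 difference of 0.52 over 11 genes. Corin at 5.32 and 0.153 RPKM and Pcsk4 at 14.6 and 0.457 RPKM were lower by the 2-fold rule, and none was higher. Pcsk4 is also on the germ cell list above and was already counted there among the lower genes. Of 11 genes on a list of serpin receptors and related genes 1 was lower, Plxdc1 at 10.7 and 1.74 RPKM. The list is not limited to receptors that clear serpin complexes, and Plxdc1 is not given here as one of them. The sorting receptor gene Sort1 had 83.7 and 154 RPKM and Lrp1, the main receptor of serpin-protease complexes, 9.04 and 10.3 RPKM.

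**Figure D4:**
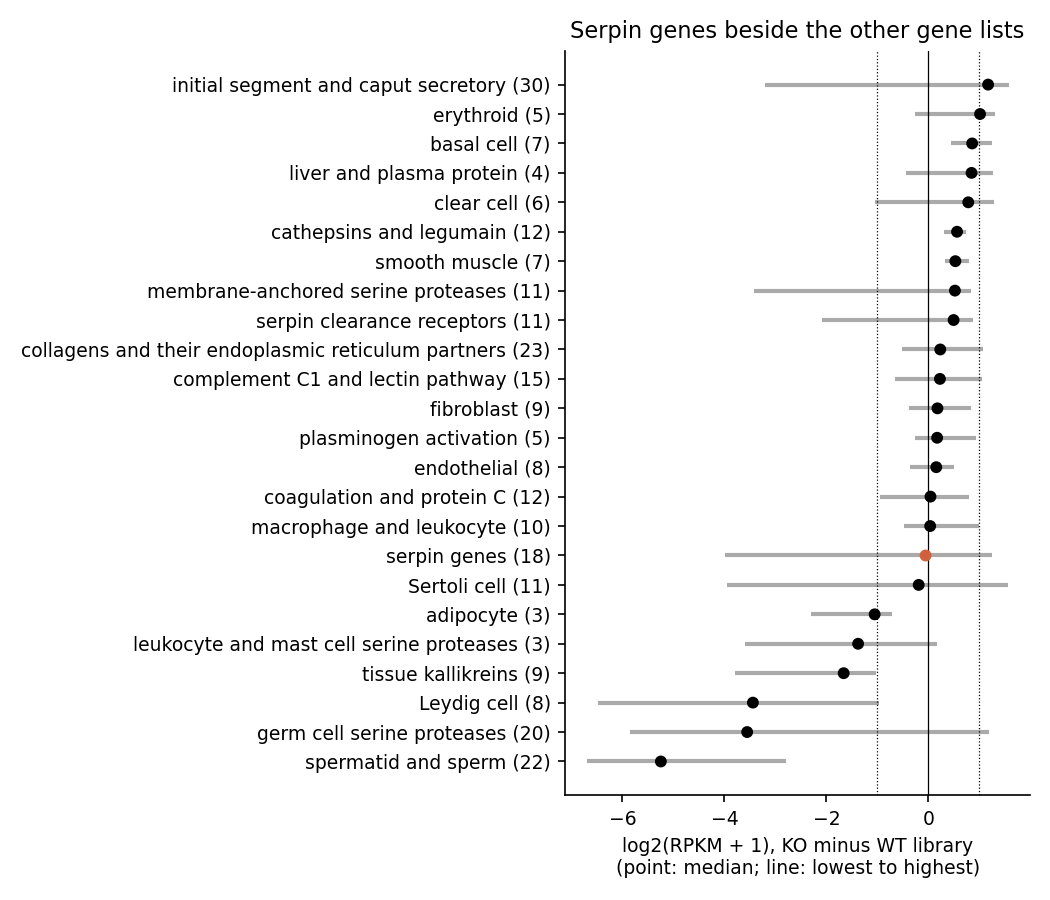
Median (point) and lowest to highest value (line) of the log2(RPKM + 1) difference, KO minus WT library, for the genes of each list at 1 RPKM or more, with their number in brackets and the serpin genes in orange. The serpin genes ran from -4.00 to 1.24, a range that spanned the medians of most lists.

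The other 45 serpin genes stayed under 1 RPKM in both libraries. The highest was Serpinb8 at 0.934 RPKM in KO, and none exceeded 40 reads. Of these genes 11 were listed at 0 in both libraries, among them all 4 Serpinb3 genes, 14 had reads only in WT, 0 only in KO and 20 in both. By RPKM 29 were lower in the KO library and 5 higher, and their recovered reads, without those of Serpina3k, summed to 279 in WT and 166 in KO. Serpins made by the liver for plasma were among them, such as Serpinc1 (antithrombin), Serpind1 (heparin cofactor II), Serpina6 (corticosteroid-binding globulin) and Serpina10. These counts describe genes near the limit of detection, where 0 reads allow up to 3. Near-identical copies are among these genes, so a summed read may have been counted more than once.

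The small RNA libraries gave a readout of the family that its definition did not use. They held reads of 18 to 40 nt that the authors had matched to mRNA entries, here called fragments. Serpin fragments, from 55 of the 63 genes in at least 1 library, were few: WT and KO had 127 and 72 reads in the older caput, 87 and 36 in corpus, 237 and 157 in cauda, and 150 and 152 in testis. Caput at 2 months had 0 reads in WT and 1 in KO. In RPM, scaled to the total of classified small RNA reads of each library and given with exact Poisson intervals, caput had 9.19 (7.66 to 10.9) in WT and 3.92 (3.07 to 4.94) in KO. Corpus had 2.99 and 4.31 RPM, cauda 14.4 and 13.7 RPM, and testis 17.5 and 15.5 RPM. On this base the KO over WT ratio was 0.427 in caput (0.315 to 0.574), while the intervals of corpus, cauda and testis held 1. With reads assigned to mRNA entries as the base, which were 476638 in WT and 154987 in KO caput, the caput ratio was 1.74 (1.29 to 2.35), the opposite direction, and the cauda ratio was 0.605 (0.491 to 0.743). Counting only reads without a mismatch, caput held 1 (0.753, 0.498 to 1.14) and testis did not (0.415, 0.174 to 0.920), and on the plus strand alone testis also lay below 1 (0.708, 0.531 to 0.942). Which tissue showed a difference in summed serpin fragments thus depended on how they were counted.

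Serpina1f gave more fragments than any other member in caput, corpus, cauda and testis at 13 months, and its reads were mainly of 2 kinds. The most abundant reads of each kind, taken from WT testis and WT cauda, are shown. The first kind shared an inner stretch of 19 nt and carried a single base that did not match the Serpina1f entry, marked as a capital. The second matched the entry throughout and so has no capital.
27 nt, from WT testis: tgacctgggaagtaactttatggAgct
30 nt, from WT testis: tgacctgggaagtaactttatggAgctatc
26 nt, from WT cauda: tcctggctgtggtgaactacattatc
28 nt, from WT cauda: attcctggctgtggtgaactacattatc

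Reads with the shared stretch and the mismatched base numbered 78 in WT and 55 in KO testis, or 9.10 RPM (7.20 to 11.4) and 5.59 RPM (4.21 to 7.28). WT caput had 29 such reads (2.10 RPM, 1.40 to 3.01), and KO caput had 0 of 18362642 reads, which allows up to 0.163 RPM. With the KO count at its floor, the WT level was at least 12.8-fold higher, a figure that takes the 29 WT reads without error, and the exact interval of the WT over KO ratio began at 9.79. Corpus had 1 read in WT and 0 in KO, and both cauda libraries and both 2-month caput libraries had 0. The 2-month libraries held few reads assigned to mRNA entries, as given above. In WT testis, WT caput and KO testis 98.2% to 100% of these reads were 24 to 32 nt long and 98.7% to 100% began with T, which are the length and first base known of piRNAs. No read with this stretch was listed under another entry. Whether they match another place in the genome without a mismatch was not analysed here.

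Serpina1f reads without a mismatch had another distribution. They numbered 26 in WT and 28 in KO caput (1.88 and 1.52 RPM), 8 and 9 in corpus (0.275 and 1.08 RPM), 131 and 62 in the cauda pair (7.97 and 5.41 RPM), and 1 and 0 in testis. The KO over WT ratio was 0.811 in caput (0.458 to 1.44), 3.91 in corpus (1.34 to 11.6) and 0.679 in cauda (0.494 to 0.926). They spread over many sequences, 87 in WT cauda and 24 in WT caput, and 26.0% and 3.85% of the reads in these libraries began with T. In KO caput 21.4% began with T. In length they differed less from the first kind, with 60.3% in WT cauda, 73.1% in WT caput and 50% in KO caput at 24 to 32 nt. In cauda the 26-nt sequence shown above was read 12 times in WT and 0 times in KO, and the 28-nt sequence 8 and 6 times. In caput, where the Serpina1f transcript itself was 2.37-fold higher in KO, mismatch-free fragments per classified read were not detectably different at this depth. Their ratio with mRNA reads as the base was not computed. That base, 476638 reads in WT and 154987 in KO caput, had reversed the ratio of the summed serpin fragments.

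**Figure D5:**
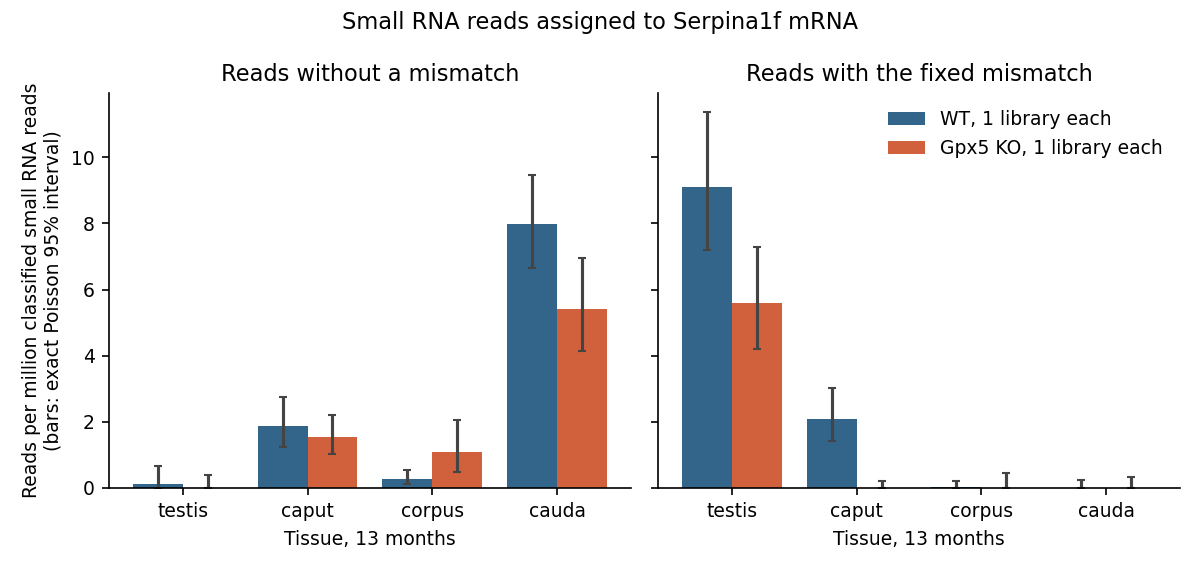
Small RNA reads assigned to Serpina1f in RPM, with exact Poisson 95% intervals, for 1 library per genotype and tissue at 13 months. Mismatch-free reads (left) were highest in cauda, at 7.97 and 5.41 RPM in WT and KO, and reads with the fixed mismatch (right) were present in testis and in WT caput.

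Of the other genes, 5 reached 10 fragments in a library. Serping1 had 12 fragments in each caput library and 29 in each cauda library, and Serpine2 had 28 (WT) and 20 (KO) in cauda but 0 and 1 in caput. Serping1 and Serpine2 fragments were thus mainly found in cauda, nearly all on the plus strand. Serpinb8 fragments were mainly found in testis, with 10 WT and 32 KO reads, a ratio of 2.79 (1.34 to 6.36), and only 1 of the 32 was on the plus strand and none matched without a mismatch. Serpinb6a had 10 and 4 fragments and Serpinb9d 8 and 11 in WT and KO testis. In caput Serpinb6a had 6 fragments in WT and 1 in KO, too few for a ratio that excludes 1 (0.125, 0.00273 to 1.03).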

How the data were processed

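The authors deposited RPKM for each RefSeq transcript in 1 WT and 1 KO caput library, made with GFOLD V1.1.3 per the file headers. Mapping was to mm9 with TopHat2 or Bowtie 0.12.7, per the submitters' processing notes, which do not say which tool made which file. How reads that match several genes were counted is not given in the sources used here. The log2 fold changes and GFOLD values named here come from the authors' deposited table, where the deposited p-value column (E-FDR) is 1 for all 28344 transcripts and was not used. The GFOLD scaling constant was 1.08212 for WT against 1 for KO, per the file headers. Small RNA files were deposited as counts per distinct sequence with the matched entry, with up to 2 mismatches per the file headers. In the 2-month files, counts stored as dates were decoded from the month.

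Each gene kept its transcript with the highest mean RPKM. Differences were log2(RPKM + 1), KO minus WT, for genes that reached 1 RPKM in either library, and a difference of 1 or more was called higher or lower. This scale understates the change of low genes. Reads per transcript were recovered by combining RPKM with the deposited log2 fold change. All 2629 transcripts with up to 20 recovered reads came out whole within 0.1 reads, 464 transcripts with reads in both libraries could not be recovered because their counts were equal or nearly so, and of 44 members with up to 300 reads 42 came out whole. No count test was run. KO over WT ratios have exact conditional binomial (Clopper-Pearson) intervals at 95%, and RPM have exact Poisson intervals. A count of 0 allows up to 3 counts. Reads carry no molecular identifiers, so intervals and floors cover counting error only. The recovery and the calls were tested on simulated data.

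Serpin fragments were small RNA reads assigned to a RefSeq mRNA accession of a member, over 67 accessions, and GenBank entries without a gene were not counted. In all 95 single-mismatch plus strand sequences checked, the read held the listed base at the listed position. Classified reads per small RNA library ran from 3855476 to 29049669. Promoter sequences are RefSeq's, build GRCm38.p6, matched for 52 of 63 members, and gene order is from the same annotation.

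The members, gene lists and thresholds were chosen with earlier results of these data known. The rule for named genes took every serpin with at least 1 RPKM with both values, up to 4 members of each other list by mean RPKM and any member counted when the count is 5 or fewer, and serpins with at least 10 fragments in a library. Acr, F5 and Kng2 were named in addition. Further marker lists are given in the closing section. Alternatives covered the pseudocount, the filter on low values, centring, transcript sums, the authors' fold changes, and the base, mismatches and strand of fragments. Python 3.11.15, pandas 2.3.3, numpy 2.4.6, scipy 1.17.1 and matplotlib 3.10.9 were used.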

Additional observations from a re-analysis of the deposited data

Results flagged for a closer look

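Per classified read, fragments of Serpina1f went in opposite directions in the KO libraries of different tissues. Counting all its fragments, the KO over WT ratio in corpus was 2.67 (1.05 to 6.60), from 13 and 10 reads, while it was 0.408 in caput (0.257 to 0.638), 0.674 in cauda (0.498 to 0.903) and 0.601 in testis (0.425 to 0.844). Those counts took in the reads with the fixed mismatch, 29 and 0 in WT and KO caput and 78 and 55 in testis. Counting only fragments without a mismatch, the ratio in corpus was 3.91 (1.34 to 11.6), from 8 and 9 reads, and 0.679 in cauda (0.494 to 0.926). In caput it was 0.811 with an interval that held 1 (0.458 to 1.44), and testis had 1 and 0 reads. Ratios of Serpina1f fragments with mRNA reads as the base were not computed. The difference between tissues was not tested, since each tissue had 1 library per genotype, and the corpus libraries were the most unequal in size, with 29049669 classified reads in WT and 8356569 in KO.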

How the results depend on the processing

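No paired analysis was possible because each group was 1 library and the labels give no replicate numbers. Leaving out a library was not possible for the same reason. The 6 genes counted as lower became 3 with a pseudocount of 5 and 11 when centred on the caput secretory list, and the 2 counted as higher became 0 with that centring. The median log2 difference of -0.06 was -0.19 with no filter on low values, 0.10 at 5 RPKM or more and -1.23 when centred on the caput secretory list. Of 144 values of single genes under the alternatives, 137 kept the sign of the reported value or were 0, and 11 of the 18 genes changed their side of the 2-fold limit at least once. Serpinb6a fell short of the limit in the authors' deposited table, with a log2 fold change of -0.96 and a GFOLD value of -0.81, and Serpinb6c with a GFOLD value of -0.66. Serpine2 passed it with the log2 fold change of that table (1.09) and with no pseudocount (1.02, an alternative chosen after seeing the data). Serpina5, Serpina3a and Serpina3g were lower by the limit under every alternative run.

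The ratio of serpin fragments was recomputed after seeing the data. In caput the 0.427 became 1.74 with mRNA reads as the base and 0.753 without mismatches. In cauda the 0.951 became 0.605 with mRNA reads as the base, and in testis the 0.883 became 0.415 without mismatches, from 21 and 10 reads. At the depth of the small RNA libraries, 0 reads allow up to 0.359 RPM in KO corpus and up to 0.778 RPM in WT caput at 2 months. These floors are per classified read, and the 2-month libraries held only 3671 (WT) and 8202 (KO) reads assigned to mRNA entries.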

Other observations

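Other marker lists gave the following values in the caput transcriptome libraries. Of 5 erythroid genes 3, Hba-a1, Hbb-b1 and Hbb-b2, were at least 2-fold higher in the KO library. The log2 differences of the 5 ran from -0.26 to 1.30, so the list lay on both sides. Its summed level was 101 RPKM in WT and 234 RPKM in KO. Of 4 liver and plasma protein genes 1 was higher, the fibrinogen gene Fga at 4.25 and 11.7 RPKM. Of 6 clear cell genes Rhcg and Car12 were higher, and Car2 was lower at 15.3 and 6.86 RPKM. Of 3 adipocyte genes Adipoq and Retn were lower and both were listed at 0 in KO, from 3.90 and 1.08 RPKM in WT. Of 11 Sertoli cell genes 5 were lower, Gata1, Wt1, Dhh, Cldn11 and Aard, and 1 was higher, Defb45, and the list includes Clu, which the caput also expresses, at 1507 and 2961 RPKM. None of 8 endothelial, 9 fibroblast, 7 smooth muscle or 2 seminal vesicle and prostate genes passed the limit in either direction.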
